A study of Mus musculus with 8 samples.

Results

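Cd209a, Cd209b, Cd209d, Cd209f, Clec10a, Mgl2, Clec4n, Clec4d, Clec4e and Clec7a encode C-type lectins of myeloid cells, and the 13 probe sets of these 10 genes were described among 45101 probe sets that cover 18194 genes with 1 symbol. The values come from mouse tumours grown from MOPC cells, a murine oropharyngeal carcinoma line, which were injected subcutaneously into C57BL/6 mice. The host mice were either wild type (WT) or Tlr3/7/9−/− (KO), lacking 3 of the Toll-like receptors that sense nucleic acids in endosomes. The injected tumour cells were the same in every host and carried the intact receptors. Tumour RNA was taken on day 6 or day 4 after injection and hybridised to Affymetrix mouse arrays, with 2 tumours in each of the groups KO day 6, WT day 6, KO day 4 and WT day 4, and 8 arrays in all. The sources give mice of 8 to 16 weeks for these arrays. The deletion is present in all cells of the host, so a value of the whole tumour does not tell which host cell type carries it. Nothing read here states that the day 4 tumours of 1 group grew in separate mice, and p-values measure only the spread between these samples.

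The 10 genes were selected with these signals in view. Cd209a was chosen for its low signal in KO tumours at both days, where it was 1 of 2 genes that passed the test across all genes at day 6. Every KO against WT value of the members below is therefore a description, with no test. The comparisons of day 6 with day 4 did not take part in that choice and were tested with limma over 12976 genes whose signal, averaged on the log2 scale, was not below the 40th percentile over all probe sets. Of the members, 9 passed this filter, and Cd209b did not.

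C-type lectins bind carbohydrates through a calcium-dependent recognition domain and let macrophages and dendritic cells take up or sense glycans of microbes and of the body's own cells. The Cd209 genes are the mouse relatives of human DC-SIGN (CD209) and lie together on chromosome 8, the chromosome that also carries Tlr3. Clec10a and Mgl2, on chromosome 11, encode the macrophage galactose-type lectins, which bind terminal galactose and N-acetylgalactosamine. Clec4n (dectin-2), Clec4d (MCL), Clec4e (Mincle) and Clec7a (dectin-1) lie on chromosome 6 and signal through the kinase Syk and the adaptor Card9, dectin-1 through a motif in its own tail and dectin-2 and Mincle through the Fc receptor gamma chain.

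The start regions of the Cd209 members are shown because these genes neighbour each other and most of them had lower signals in KO tumours. RefSeq windows on the build GRCm38.p6 reach from 250 bases before to 50 bases after the annotated start, read 5′ to 3′ on the strand of the gene, and were found for 8 of the 10 members. Capitals mark matches, on either strand, to CCGGAA, a core bound by ETS factors that reads TTCCGG on the opposite strand, or to GAGGAA, a core of the PU.1 type that reads TTCCTC there. These motifs were picked after the sequences had been read.
Cd209a (chr8:3748935-3749234, minus strand): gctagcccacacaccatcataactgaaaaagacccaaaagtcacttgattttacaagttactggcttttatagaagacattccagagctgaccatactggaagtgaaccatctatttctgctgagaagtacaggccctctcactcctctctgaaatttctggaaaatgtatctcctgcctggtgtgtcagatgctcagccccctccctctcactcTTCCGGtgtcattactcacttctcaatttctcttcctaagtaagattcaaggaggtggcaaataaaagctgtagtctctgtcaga
Cd209b (chr8:3926792-3927091, minus strand): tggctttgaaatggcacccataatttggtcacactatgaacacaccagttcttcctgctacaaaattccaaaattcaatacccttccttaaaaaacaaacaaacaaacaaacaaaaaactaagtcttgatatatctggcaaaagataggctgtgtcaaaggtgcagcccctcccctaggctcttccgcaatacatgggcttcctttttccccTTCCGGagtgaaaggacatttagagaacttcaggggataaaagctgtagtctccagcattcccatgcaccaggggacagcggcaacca
Cd209d (chr8:3878450-3878749, minus strand): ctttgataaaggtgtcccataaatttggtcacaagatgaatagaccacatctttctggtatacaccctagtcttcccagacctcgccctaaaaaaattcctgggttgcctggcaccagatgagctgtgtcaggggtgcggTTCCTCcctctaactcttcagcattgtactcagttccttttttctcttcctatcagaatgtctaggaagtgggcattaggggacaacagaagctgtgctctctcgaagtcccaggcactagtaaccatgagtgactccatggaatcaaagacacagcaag
Cd209f (chr8:4105715-4106014, minus strand): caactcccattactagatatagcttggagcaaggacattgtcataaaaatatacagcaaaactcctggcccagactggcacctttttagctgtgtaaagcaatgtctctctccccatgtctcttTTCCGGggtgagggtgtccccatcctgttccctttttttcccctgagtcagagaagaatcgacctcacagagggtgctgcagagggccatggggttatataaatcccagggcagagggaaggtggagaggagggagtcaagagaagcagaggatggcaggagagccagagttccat

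CCGGAA or its complement stood 35 bases before the start of Cd209a, 38 bases before that of Cd209b and 126 bases before that of Cd209f, counted to the first base of the match. It was found in 3 of 8 member windows and in 15.2% of 27025 promoter windows of the same length. GAGGAA or its complement was found in 5 of 8, those of Cd209d, Mgl2, Clec4d, Clec4e and Clec7a, and in 28.3% of all windows. Cd209f and Clec4e also held TATAAA from base −29, a motif present on either strand in 4 of 8 member windows and in 14.2% of all. In a global alignment, 185 of 300 bases (61.7%) were identical between the windows of Cd209b and Cd209d, against 169 (56.3%) between Cd209a and Cd209b. The windows of members outside the cluster came close to this, sharing from 152 (50.7%, Mgl2) to 161 (53.7%, Clec7a) with Cd209a. These matches describe the letters of the windows and no binding was measured.

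Array signals are MAS5 intensities, linear values made by the authors, with a 2% trimmed mean of 1000 on every array. The median signal ranged 133.2 to 175.2 over the 8 arrays. Arrays of the same group had Spearman correlations of 0.941 to 0.953 over all probe sets. Of the targeted genes, Tlr7 and Tlr3 on their brightest probe sets had lower signals in both KO than in both WT tumours at each day. Tlr9 lay below the filter and was not lower. At day 6 it was higher in both KO tumours, at 123.7 and 84.2 against 20.8 and 58.5 in WT tumours, and the groups overlapped at day 4. The position of these probe sets relative to the deleted parts was not examined. Skeletal muscle markers were high in KO day 6 replicate 2, KO day 4 replicate 2 and WT day 4 replicate 2, where their summed signal was 33857, 13547 and 88227, against at most 688 on the other arrays. Epidermis markers summed to 32495 in KO day 6 replicate 2 and to at most 4958 elsewhere. The 2 adipocyte markers summed to 5864.5 and 6062 in KO tumours and 16139 and 9986 in WT tumours at day 6. At day 4 they summed to 11297 and 8773 in KO tumours and 10575 and 20976 in WT tumours, which overlapped. The part of these tissues in the values of the lectin genes was not tested. Xist, transcribed in female cells, had signals of 5579 to 7121 at day 6 and of 44.6 to 142.1 at day 4, so the sex of the hosts and the day cannot be told apart. Fewer cells of a type and less RNA per cell cannot be told apart in whole tumours either.

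Cd209a, whose product is expressed on dendritic cells of monocyte origin and in the dermis, had the lowest log2 fold change of all 12976 genes at day 6. On probe set 1426172_a_at its signal was 52.1 and 15.1 in the KO tumours of day 6, against 965.3 and 770.9 in the WT tumours of day 6. At day 4 it was 88.6 and 115.5 in KO tumours and 564.1 and 863.1 in WT tumours. All 4 KO signals lay below all 4 WT signals, with a wide gap between them. On the scale of log2(signal + 16), Cd209a was 19.1-fold lower in KO tumours at day 6, a log2 fold change of −4.26 (SE, the standard error of the fit, 0.40), and 6.09-fold lower at day 4, a log2 fold change of −2.61 (SE 0.40). At day 4, 4 genes had a lower log2 fold change than Cd209a. At day 6 the test across all genes called 1 gene as lower in KO tumours, Cd209a itself, or 0.00771% of the genes tested, and nothing is read from this since that comparison chose it.

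In KO tumours Cd209a was among the dimmer probe sets of its array. In the KO tumours of day 6, 32.3% and 14.7% of the probe sets of the same array had a lower signal than Cd209a, against 74.2% and 71.1% in WT tumours. At day 4 the shares were 40.3% and 44.0% in KO and 67.7% and 72.6% in WT tumours. These positions do not depend on the scaling, and they separate the genotypes as the signals do. The KO signals of Cd209a reach the range of those of Cd209b and no detection call was used here, so the signals give the order of the groups but do not settle the size of the fold. The log2 fold change also depends on the pseudocount added to the signal, with log2 fold changes at day 6 of −4.88 with 1 and −3.27 with 64. Leaving out 1 array at a time gave −4.82 to −3.69 at day 6 and −2.91 to −2.31 at day 4.

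**Figure D1:**
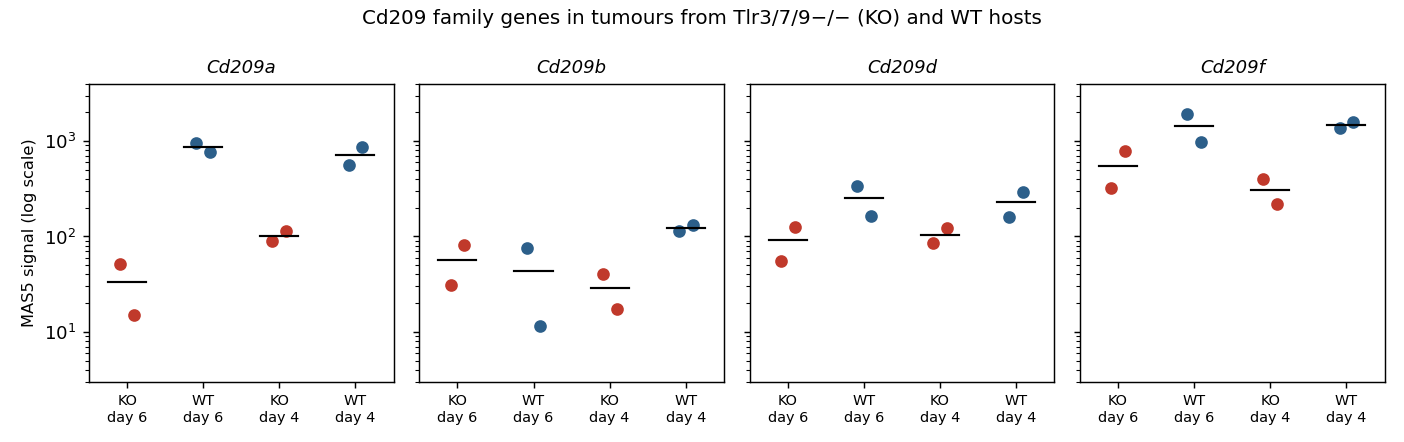
MAS5 signals of the 4 Cd209 members on a log scale, with 1 point per tumour and a line at the mean of each group of 2 (KO, Tlr3/7/9−/− hosts in red, WT hosts in blue). Cd209a lies between 15.1 and 115.5 in KO tumours and between 564.1 and 965.3 in WT tumours, and Cd209b overlaps at day 6.

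Cd209d and Cd209f, neighbours of Cd209a in the cluster, also had lower signals in KO tumours at both days. Cd209d (SIGN-R3, a receptor for mycobacterial glycans) had a signal of 55.8 and 125.9 in KO tumours and 337.1 and 164.6 in WT tumours at day 6, and of 85.5 and 121.5 in KO tumours and 159.2 and 295.4 in WT tumours at day 4. Its log2 fold change was −1.32 (SE 0.49) at day 6 and −0.98 (SE 0.49) at day 4. Both groups were separate at each day, but the highest KO signal and the lowest WT signal were close to each other. Cd209f had a signal of 319.3 and 780.6 in KO tumours and 1917 and 981.3 in WT tumours at day 6, which gives −1.43 on the log2 scale (SE 0.46). At day 4 the signals were 398.8 and 219.7 in KO tumours and 1380 and 1571 in WT tumours, which gives −2.25 on the log2 scale (SE 0.46). The log2 fold changes of Cd209f at the 2 days differed by 0.83 (SE 0.64), given as a description with no test. Leaving out 1 array at a time gave −1.81 to −0.83 at day 6 and −1.40 to −0.57 at day 4 for Cd209d, and −2.05 to −0.80 and −2.66 to −1.84 for Cd209f.

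Cd209b (SIGN-R1), known from macrophages of the splenic marginal zone, was near the bottom of the signal range. Its brighter probe set, 1456895_at, read 31.2 and 82.1 in KO tumours and 75.4 and 11.5 in WT tumours at day 6, and 40.5 and 17.4 in KO tumours and 113 and 130.7 in WT tumours at day 4. The groups overlapped at day 6 and were separate at day 4. The other probe set, 1426157_a_at, read 14.2 and 29.5 in KO tumours and 22.6 and 136.4 in WT tumours at day 4, where the groups overlapped. The probe sets of Cd209b thus do not agree, and at signals this low they do not settle the level of the gene.

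Among the 3 other genes of the family, Cd209g passed the filter. Its signal was 149.4 and 933.2 in KO tumours and 741.8 and 413 in WT tumours at day 6, which overlapped, and 307.3 and 114.9 in KO tumours and 460.6 and 538.1 in WT tumours at day 4. The windows of Cd209f and Cd209g shared 258 of 300 bases (86%), and whether the probe sets of these similar genes also bind each other's transcripts was not tested. Cd209c, at 29.2 and 54.7 in KO tumours and 75.7 and 64.7 in WT tumours at day 6, and Cd209e, at 5.1 and 10.1 in KO tumours and 90 and 34 in WT tumours at day 6, lay below the filter. At day 4 Cd209c read 26.5 and 51.3 in KO tumours and 115.2 and 92.2 in WT tumours, and Cd209e read 20.7 and 6.3 in KO tumours and 23.3 and 2.9 in WT tumours. The groups of Cd209e overlapped at day 4.

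The genes beside the cluster are described by their own values. Cd209a was chosen for its low value, so nothing is read from its being lower than they were. Of the 20 nearest tested genes, 10 on each side in the RefSeq order of GRCm38.p6, the median log2 fold change (KO over WT) was −0.04 at day 6 (range −1.62 to 0.78) and 0.05 at day 4 (range −1.52 to 0.57). The lowest of them at both days was Retn, the gene of resistin, at −1.62 and −1.52, and its groups overlapped at day 6. Of the 20, 1 gene, Evi5l, had lower signals in both KO tumours at both days, as did 4.72% of all genes tested. Evi5l is the nearest tested gene on 1 side of the cluster, and its log2 fold changes were −0.74 and −0.47.

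**Figure D2:**
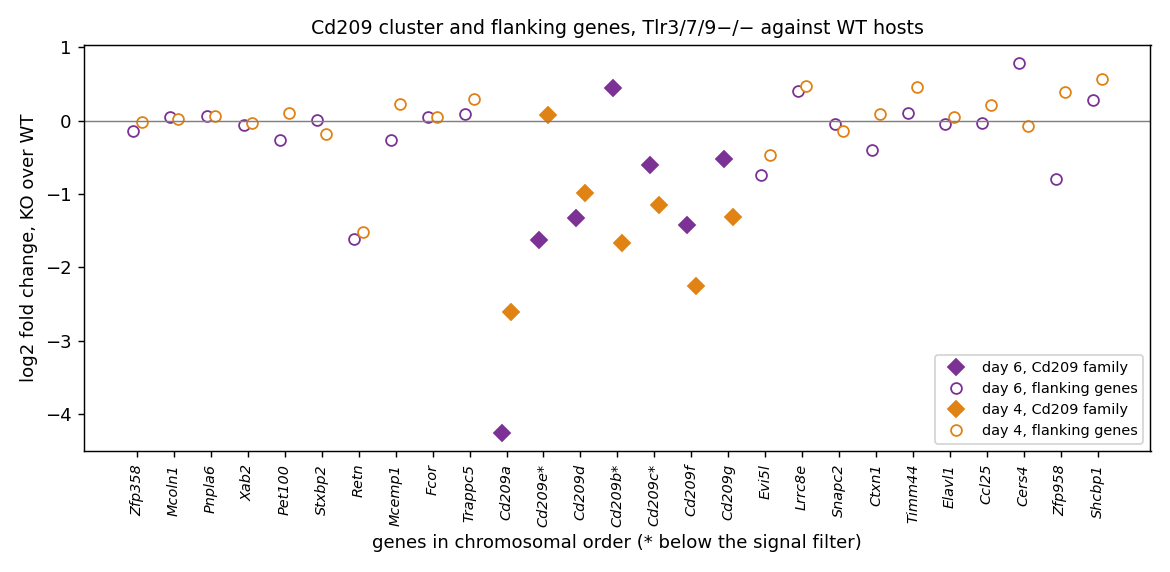
Log2 fold change of KO over WT tumours for the Cd209 cluster (filled diamonds) and the 20 flanking tested genes (open circles) in chromosomal order, at day 6 (purple) and day 4 (orange). Cd209a, chosen for its low value, lies at −4.26 and −2.61, and the flanking genes other than Retn lie between −0.79 and 0.78.

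The galactose-type lectins showed smaller differences between the genotypes. Clec10a (MGL1) had a signal of 2513 and 2229 in KO tumours and 3029 and 2709 in WT tumours at day 6, and its log2 fold change was −0.27 (SE 0.37). At day 4 it was 1470 and 1737 in KO tumours and 1721 and 4578 in WT tumours, and its log2 fold change was −0.81 (SE 0.37). The groups were separate at day 6 and overlapped at day 4, where 1 WT tumour, replicate 2, stood far above the other, and without it the log2 fold change was −0.11. Mgl2 (MGL2) had a signal of 2365 and 1212 in KO tumours and 2751 and 2029 in WT tumours at day 6, and its log2 fold change was −0.48 (SE 0.33). At day 4 it was 1169 and 1144 in KO tumours and 1085 and 1809 in WT tumours, and its log2 fold change was −0.27 (SE 0.33). Mgl2 overlapped between the genotypes at both days, and without KO day 6 replicate 2 its log2 fold change at day 6 was 0.0014.

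The Syk-coupled lectins Clec4n, Clec4d and Clec7a overlapped between KO and WT tumours at each day. Clec4n, a receptor for fungal mannans, had log2 fold changes of −0.03 (SE 0.23) at day 6 and 0.15 (SE 0.23) at day 4. Clec7a, the receptor for beta-glucans, had values of 0.51 and −0.31 (SE 0.37 each) at the same days. Clec4d, a partner of Mincle, had a signal of 4857 and 2776 in KO tumours and 4308 and 5403 in WT tumours at day 6, and of 4042 and 5159 in KO tumours and 8576 and 3855 in WT tumours at day 4. Its log2 fold changes were −0.39 at day 6 and −0.33 at day 4 (SE 0.37 each), and the value at day 4 was 0.24 without WT day 4 replicate 1.

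Clec4e, the receptor for mycobacterial cord factor and for products of dying cells, was lower in KO tumours at day 4. Its signal at day 4 was 533.7 and 489.8 in KO tumours and 1730 and 809.1 in WT tumours, and its log2 fold change was −1.19 (SE 0.35). At day 6 it was 1004 and 621.2 in KO tumours and 787.5 and 987.6 in WT tumours, with overlapping groups and a log2 fold change of −0.16. The second probe set, 1420331_at, also had both KO signals below both WT signals at day 4, at 235.1 and 123.7 against 398.8 and 256.3. Without WT day 4 replicate 1 the log2 fold change at day 4 was −0.65. That array also had the highest summed signal of the neutrophil markers, 12404 over 6 genes, against 1260 to 8376 on the others, and the part of neutrophils in this value was not tested. The change between the days differed by 1.03 (SE 0.50) between the genotypes, given as a description with no test.

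**Figure D3:**
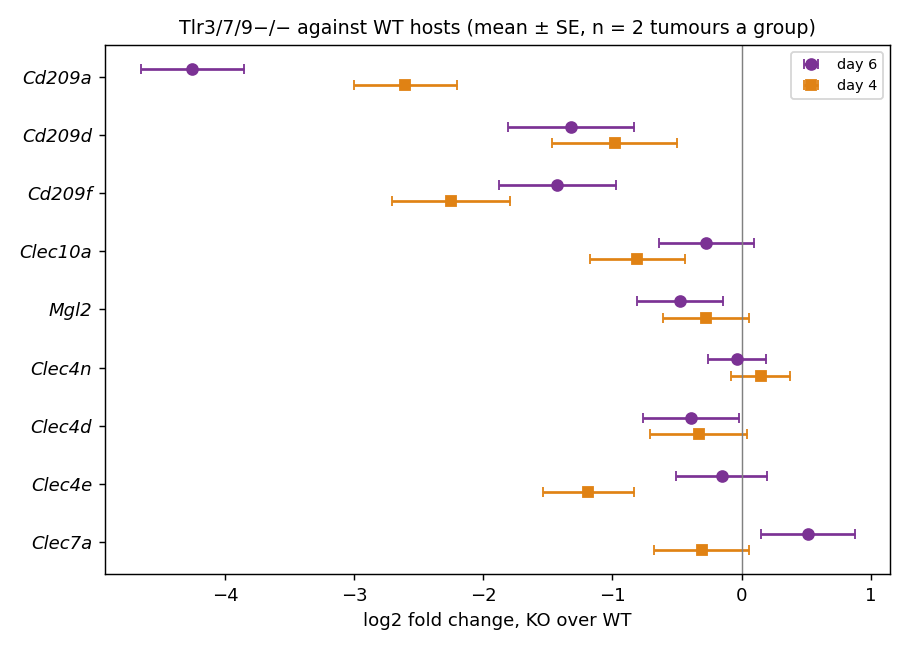
Log2 fold change of KO over WT tumours with its standard error for the 9 members that passed the filter, at day 6 (circles) and day 4 (squares), with 2 tumours a group. Cd209a, Cd209d and Cd209f lie below 0 at both days, and Clec4n and Clec7a lie on both sides of 0.

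Counted over the 9 members that passed the filter, both KO signals were lower than both WT signals for 4 at day 6 (Cd209a, Cd209d, Cd209f and Clec10a), against 20.9% of all genes, and for 4 at day 4 (Cd209a, Cd209d, Cd209f and Clec4e), against 16.8%. Both KO signals were higher for 0 members at day 6, against 16.1% of all genes, and for 0 at day 4, against 19.6%. Cd209a, Cd209d and Cd209f were lower at both days, as were 613 genes in all, or 4.72%. The median log2 fold change of the 9 members was −0.39 at day 6 and −0.81 at day 4, where that of all genes was −0.01 and 0.01. As the members were selected on this comparison, nothing is read from these counts.

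Most macrophage markers had a negative log2 fold change of KO over WT. Of 11 macrophage genes, 8 at day 6 and 10 at day 4 had a negative log2 fold change, with medians of −0.40 and −0.60. The test over all genes was passed by 0 of them. At an unadjusted p under 0.05 in limma were 7 and 9, against 824 and 922 of all 12976 genes, and the methods' t-test was not run on this list. At day 6 Cd163, Mrc1 and Fcgr1, named with their values in view, had a positive log2 fold change, and Cd163 was among the 7, with the higher signal in KO tumours. Their summed signal was 107262 and 111539 in KO tumours and 137933 and 139027 in WT tumours at day 6, and 98463 and 92253 in KO tumours and 124001 and 168387 in WT tumours at day 4. Adgre1, which encodes the macrophage marker F4/80, had log2 fold changes of −0.61 at day 6 and −0.88 at day 4 (adjusted p = 0.713 and 0.342 from limma). No defining macrophage marker was near 0 on any array.

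The summed signal of the dendritic cell genes overlapped between the genotypes. Their 14 genes summed to 77975 and 60532 in KO tumours and 78105 and 72200 in WT tumours at day 6, and to 63951 and 65200 in KO tumours and 54274 and 71984 in WT tumours at day 4. The sums overlapped at both days, and a sum gives most weight to the genes with the highest signals. A negative log2 fold change was seen for 11 of 13 tested genes at day 6 and 8 of 13 at day 4, with 0 past the test. At an unadjusted p under 0.05 in limma were 2 and 1, against 824 and 922 of all 12976 genes. Ccr7, the homing receptor of migrating dendritic cells, had the smallest p at day 6, with a log2 fold change of −1.69 (SE 0.42, adjusted p = 0.713 from limma). At day 4 its value was −0.81 (adjusted p = 0.766). Cd83 had −1.13 at day 6 and −0.94 at day 4 (SE 0.36 each, adjusted p = 0.760 and 0.648 from limma). Both genes had lower signals in both KO than in both WT tumours at each day, as did 4.72% of all genes tested. Xcr1, a marker of cross-presenting dendritic cells, was at 11 to 180.6 and below the filter. The part of cell numbers in the values of the lectin genes was not tested.

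The genes whose profile over the 8 arrays lay closest to that of Cd209a were Tlr7, Cd300ld, Zfp709, Lpl and Ccr7. Closeness is the root mean square difference of log2 signals centred on each gene's mean, which was 0.59 for Tlr7, 0.93 for Cd300ld, 1.06 for Zfp709, 1.11 for Lpl and 1.12 for Ccr7, where Cd209a itself had a standard deviation of 1.94. Tlr7 read 80.1 and 10.8 in KO tumours and 471.3 and 466.1 in WT tumours at day 6, and 70 and 25.2 in KO tumours and 382.9 and 673.4 in WT tumours at day 4. It is one of the deleted genes and the closest of the 5, and the others followed at nearly equal distance. The closest to Clec7a were Cxcl11, a ligand of CXCR3, and Il13ra2, a receptor of interleukin-13, at 0.25 and 0.32, and to Clec10a they were Hfe and Ly86, at 0.17 and 0.18. Closeness in 8 tumours is a description and says nothing of shared control.

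Clec7a had a higher signal at day 6 than at day 4 in both genotypes. It read 14392 and 7440 in KO tumours at day 6, against 1246 and 1891 in KO tumours at day 4, and 8072 and 6517 in WT tumours at day 6, against 2566 and 1416 in WT tumours at day 4. The days were separate in each genotype, and the lowest signal of day 6 lay well above the highest of day 4. The rise was 6.68-fold in KO tumours, a log2 fold change of 2.74 (SE 0.37, adjusted p = 0.0134 from limma), and 3.78-fold in WT tumours, and its log2 fold change was 1.92 (SE 0.37, adjusted p = 0.0270). The rises differed by 0.82 (SE 0.52), given as a description with no test. Over 20 alternatives the adjusted p ranged 0.00723 to 0.121 in KO and 0.0124 to 0.201 in WT tumours. The call in KO tumours was lost without KO day 4 replicate 1 or 2 (limma's adjusted p = 0.112 and 0.121) and without the trend (0.0533). That in WT tumours was lost without WT day 6 replicate 1 (0.201), WT day 6 replicate 2 (0.0506), WT day 4 replicate 2 (0.0568), KO day 4 replicate 1 (0.0629) and KO day 4 replicate 2 (0.0615), without the trend (0.0733) and with the compared groups alone (0.0854). With 1 array left out the log2 fold change stayed between 2.26 and 3.22 in KO and between 1.49 and 2.34 in WT tumours.

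Clec4n was also higher at day 6 in both genotypes. On probe set 1419627_s_at it read 5468 and 5930 in KO tumours at day 6, against 1932 and 2728 in KO tumours at day 4, and 7286 and 4662 in WT tumours at day 6, against 2151 and 1997 in WT tumours at day 4. The days did not overlap in either genotype. This probe set and that of Clec4d carry the suffix with which Affymetrix marks probes that can match more than 1 gene. The log2 fold change was 1.30 in KO tumours (SE 0.23, adjusted p = 0.0245 from limma) and 1.48 in WT tumours (SE 0.23, adjusted p = 0.0179), with a difference of −0.18 between them (SE 0.32), given with no test. The second probe set, 1425951_a_at, read 3580 and 3020 in KO tumours at day 6 and 1378 and 1990 at day 4, and in a fit of all probe sets its log2 fold changes of 0.98 in KO and 1.24 in WT tumours did not pass (limma's adjusted p = 0.100 and 0.0547). Over 20 alternatives the adjusted p ranged 0.0121 to 0.154 in KO and 0.00645 to 0.113 in WT tumours. The call in KO tumours was lost without KO day 6 replicate 1 or 2 (limma's adjusted p = 0.0731 and 0.0963) or KO day 4 replicate 1 or 2 (0.154 and 0.141) and without the trend (0.0625), and that in WT tumours when WT day 6 replicate 1 was left out (0.113), with KO day 4 replicate 1 (0.0517) or KO day 4 replicate 2 (0.0515) left out, without the trend (0.0601) and with the compared groups alone (0.0878).

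**Figure D4:**
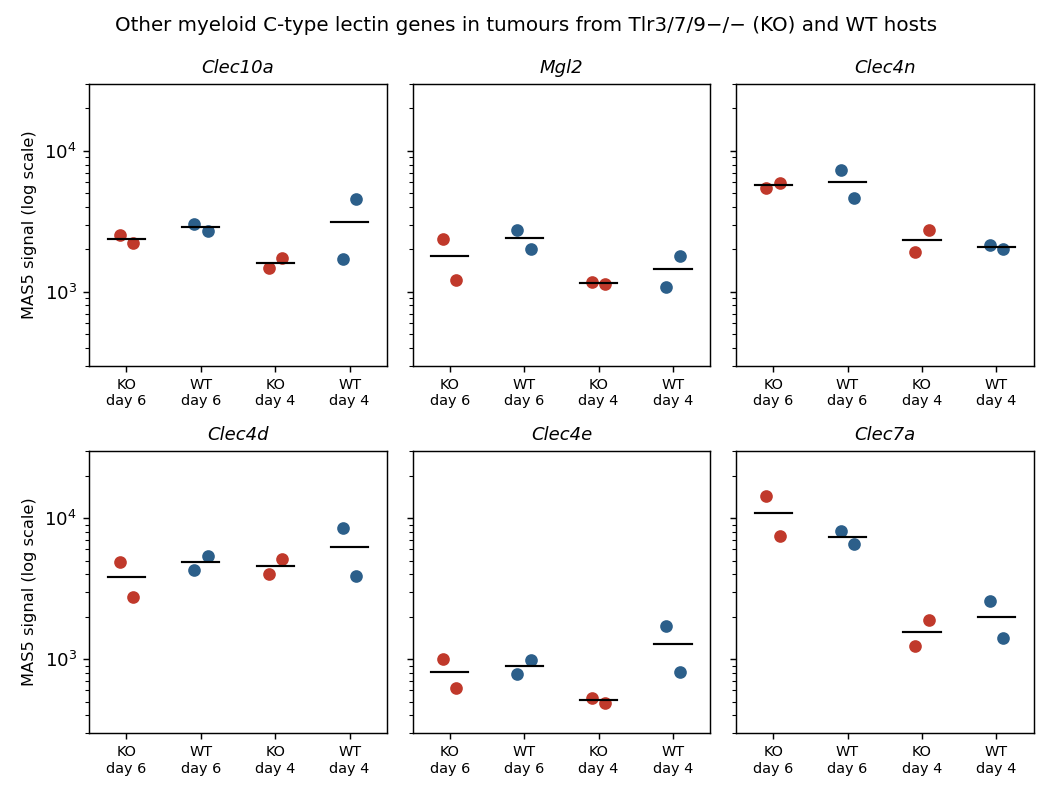
MAS5 signals of the 6 members outside the Cd209 cluster on a log scale, with 1 point per tumour and a line at the mean of each group of 2 (KO in red, WT in blue). Clec7a and Clec4n are higher at day 6 than at day 4 in both genotypes, and Clec4d overlaps throughout.

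No other member passed the test between the days. In all, 2 of 9 members were higher at day 6 in KO tumours, against 3.71% of all genes, and the same 2 in WT tumours, against 4.16%. Lower at day 6 were 0 members in KO tumours, against 2.52% of all genes, and 0 in WT tumours, against 1.66%. At an unadjusted p under 0.05 in limma, in either direction, were 3 members in KO and 2 in WT tumours, against 3385 and 3321 of the 12976 genes. The count in KO tumours includes Cd209a. The difference between the day effects was past the test for 0% of the genes, with 568 at an unadjusted p under 0.05. Cd209a had a log2 fold change of −1.35 between the days in KO tumours (SE 0.40, adjusted p = 0.0793 from limma). That comparison shares the KO arrays on which Cd209a was chosen. Cd209a passed the filter on a mean that includes its higher WT signals. On the KO arrays 32.3% and 14.7% of probe sets at day 6, and 40.3% and 44.0% at day 4, had a lower signal. Nothing is read from that p-value. In WT tumours the log2 fold change of Cd209a was 0.30 (SE 0.40, adjusted p = 0.686 from limma). Both signals of Mgl2 at day 6 lay above both of day 4 in each genotype, with log2 fold changes of 0.55 in KO and 0.75 in WT tumours (SE 0.33 each), which missed the threshold (limma's adjusted p = 0.334 and 0.202). Clec10a had 0.56 in KO and 0.03 in WT tumours (adjusted p = 0.366 and 0.972), and over 20 alternatives its adjusted p ranged 0.0443 to 0.671 in KO and 0.0482 to 0.980 in WT tumours. It passed in KO tumours without WT day 4 replicate 1 or 2 (adjusted p = 0.0443 and 0.0446) or with the compared groups alone (adjusted p = 0.0445), with the same log2 fold change, and in WT tumours without WT day 4 replicate 2, where the log2 fold change was 0.73.

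**Figure D5:**
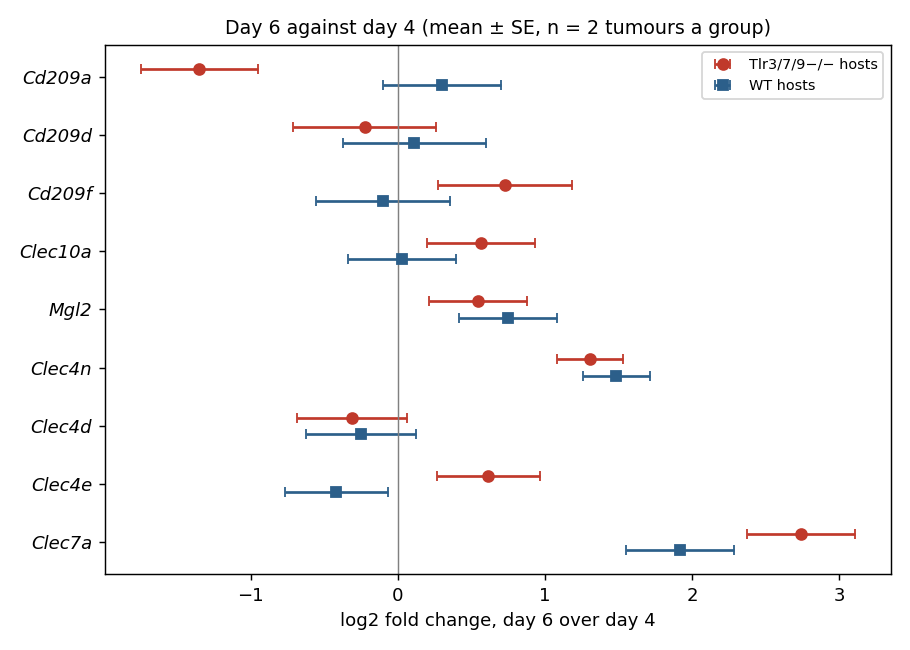
Log2 fold change of day 6 over day 4 with its standard error for the 9 members that passed the filter, in KO tumours (circles) and WT tumours (squares), with 2 tumours a group. Clec7a, at 2.74 and 1.92, and Clec4n, at 1.30 and 1.48, lie above the others in both genotypes.

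Of 15 tested genes of Syk and Card9 signalling, 0 passed the test between the days in either genotype, and 0 passed between the genotypes at day 6 or day 4. At an unadjusted p under 0.05 in limma between the days were 4 in KO and 2 in WT tumours, against 3385 and 3321 of the 12976 genes. Between the genotypes 1 was under it at day 6 and 6 at day 4, against 824 and 922 of all genes. Fcer1g, the Fc receptor gamma chain with which dectin-2 and Mincle pair, had a log2 fold change between the days of 0.46 in KO tumours (SE 0.13, adjusted p = 0.0725 from limma) and 0.32 in WT tumours (adjusted p = 0.168). Syk had a log2 fold change of −0.74 between the genotypes at day 4 (SE 0.20, adjusted p = 0.466 from limma).

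Among 20 other tested C-type lectin genes, 2 were higher at day 6 in each genotype and 0 were lower. Of all genes, 3.71% were higher in KO and 4.16% in WT tumours, and 2.52% and 1.66% were lower. Clec5a, a myeloid lectin that pairs with the adaptor DAP12, rose in both genotypes, with log2 fold changes of 1.24 in KO tumours (SE 0.29, adjusted p = 0.0450 from limma) and 1.41 in WT tumours (adjusted p = 0.0318). Olr1, the receptor for oxidised low-density lipoprotein, rose in KO tumours by a log2 of 1.68 (adjusted p = 0.0450), and Cd72, a lectin of B cells and some macrophages, rose in WT tumours by 0.87 (adjusted p = 0.0341). Between the genotypes 0 of the 20 passed at either day. At an unadjusted p under 0.05 in limma were 7 at day 6 and 5 at day 4, against 824 and 922 of all 12976 genes. A negative log2 fold change of KO over WT was seen for 16 of the 20 at day 6 and 13 at day 4, with medians of −0.46 and −0.23.

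Some markers of myeloid states passed the test between the same days. Of 12 tested genes of alternative activation, 7 were higher at day 6 in KO tumours, against 3.71% of all genes. In WT tumours 0 passed, and 5 had an unadjusted p under 0.05 in limma, against 3321 of the 12976 genes. Whether the genotypes differ was past the test for 0 of them, and 5 had an unadjusted p under 0.05, against 568 of all genes. The largest was Ccl24, an eotaxin that attracts eosinophils, with a log2 fold change of 4.90 in KO tumours (SE 0.38, adjusted p = 0.00206 from limma), followed by Chil3 at 3.20 (adjusted p = 0.0499). Cbr2, an enzyme of resident macrophages of connective tissue, fell by 1.41 in KO tumours and by 1.25 in WT tumours (log2, adjusted p = 0.0262 and 0.0318 from limma). It was the 1 of 5 tested genes of that list that passed in each genotype. In KO tumours 4 of the 5 had a negative log2 fold change and Cd163 had 1.11 (adjusted p = 0.0801 from limma). In WT tumours all 5 were negative. Of 11 macrophage genes, Fcgr1 rose by a log2 of 0.85 and Mertk fell by 0.57 in KO tumours, and 0 passed in WT tumours (3 had an unadjusted p under 0.05). Summed macrophage signals were 107262 and 111539 in KO tumours at day 6 against 98463 and 92253 in KO tumours at day 4, and 137933 and 139027 in WT tumours at day 6 against 124001 and 168387 in WT tumours at day 4. The part of cell numbers in the rise of Clec7a and Clec4n was not tested, and day and host sex cannot be told apart in it.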

How the data were processed

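RNA of MOPC tumours (2 per group, 8 arrays) was hybridised to Affymetrix mouse arrays. Each probe set has 1 linear intensity value, deposited by the authors. The submitters' processing notes name MAS5 without a version, and the 2% trimmed mean of 1000 on every array is part of the deposited intensity values. The platform annotation gave 1 symbol to 34958 of 45101 probe sets, and 34754 were matched by Entrez identifier. For each of 18194 genes the brightest probe set by mean log2 signal was used. Detection calls were not used here, and the number of arrays limits the precision.

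The 4 groups were fitted by limma 3.58.1 (R 4.3.3) to log2(signal + 16), with 4 residual degrees of freedom and a trend on the mean. A fold change on this scale understates the change of low genes. Benjamini-Hochberg adjusted p-values cover the 12976 genes tested, and a value under 0.05 was called. The fit was tested on simulated data. The genes named are the 10 members, the other genes of the Cd209 family, up to 4 called genes of each list with the largest change or otherwise at most 3 with the smallest p, the 5 genes nearest to Cd209a and at most 2 for each other member. Evi5l, Retn, Xcr1, Xist, Cd163, Mrc1, Tlr3 and Tlr9 fall outside this rule and were picked with their values in view. The members and lists were chosen with earlier results of these data known. Alternatives were other scalings, pseudocounts, filters, probe set rules and fits, each array left out, and the t-test of the methods. Promoter windows came from RefSeq (GRCm38.p6), and motifs were searched on both strands.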

Additional observations from a re-analysis of the deposited data

How the results depend on the processing

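With 2 tumours a group, 1 array decides several calls, and low signals such as those of Cd209a carry folds that depend on the pseudocount. The log2 fold change of Cd209a was −4.88 with a pseudocount of 1 and −3.27 with 64 at day 6, and −2.20 with 64 at day 4. Leaving out 1 array at a time gave −4.82 to −3.69 at day 6 and −2.91 to −2.31 at day 4. The log2 fold change of Cd209a stayed negative under every alternative run. Nothing is read from this, since Cd209a was chosen on this comparison and its KO and WT signals do not overlap. Of the 9 members tested, 2 passed between the days in each genotype, but 0 in either without the trend or with the methods' t-test after Benjamini-Hochberg, and 0 in WT tumours when only the compared groups were fitted. The t-test unadjusted gave 2 in KO and 1 in WT tumours. Leaving out arrays gave 0 to 3 in KO tumours and 0 to 2 in WT tumours.

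Of all genes, 809 passed between the days in KO and 756 in WT tumours. The counts were 1342 and 1784 with median centring, 523 and 555 with no filter, 398 and 473 with the mean of all probe sets, 74 and 9 without the trend, 1747 and 11 with the compared groups alone, and 1 and 0 with the t-test after Benjamini-Hochberg (2627 and 1399 unadjusted). Without KO day 4 replicate 1 or 2 they were 3 and 5 in KO and 32 and 32 in WT tumours, and without WT day 6 replicate 1 it was 4 in WT tumours. The cause was not tested. Median centring raised the log2 fold change of the median gene between the days by 0.17 in KO and 0.19 in WT tumours, and Cd209f in WT tumours then had 0.08 in place of −0.10.

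The replicate numbers were not taken to pair the samples, since the correlation of the replicate differences was over 0.1 for 3 pairs of groups (KO day 6 with KO day 4 0.21, KO day 6 with WT day 4 0.25, KO day 4 with WT day 4 0.27) and −0.03, −0.03 and −0.12 for the pairs with WT day 6. The 3 groups other than WT day 6 are those with high muscle markers in replicate 2, and the part of these in the correlations was not tested. With the replicate number as a block, 325 and 463 genes passed and the members called stayed at 2 in each genotype. With the numbers of WT day 4 exchanged, an alternative chosen after seeing the data, 773 and 714 passed. The difference between the day effects was past the test for 0 members under every alternative in which it was fitted. Cd209a was left out of that count. Nothing is read from it, since the members were chosen on KO against WT.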

Other observations

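Other marker lists of myeloid cells gave further values beside the lectin genes. Fcgr4, an Fc receptor of patrolling monocytes and macrophages, rose between the days in KO tumours by a log2 of 1.97 (SE 0.31, adjusted p = 0.0211 from limma), the 1 of 4 tested monocyte genes that passed there, and 0 of 4 passed in WT tumours (2 had an unadjusted p under 0.05). Of 6 neutrophil genes, 0 passed between the days in either genotype (3 in KO and 1 in WT tumours had an unadjusted p under 0.05 in limma), with summed signals of 8376 and 8234 in KO and 5022 and 4167 in WT tumours at day 6, and 1944 and 4864 in KO and 12404 and 1260 in WT tumours at day 4. Of all 12976 genes, 3385 in KO and 3321 in WT tumours had an unadjusted p under 0.05 in limma between the days. Between the genotypes 0 of the 4 monocyte genes passed at either day. At each day 3 were negative and 1 was positive, with medians of −0.10 at day 6 and −0.26 at day 4. Cx3cr1, the fractalkine receptor of monocytes, had the smallest p at day 6. Its log2 fold changes were −1.35 at day 6 and −0.42 at day 4 (adjusted p = 0.713 and 0.902 from limma). Fcgr4 had 0.30 at day 6 and −1.18 at day 4, and Spn had −0.11 and 0.29.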
